A study of Mus musculus with 16 samples.

Results

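The axonemal dynein assembly factor genes examined here were Dnaaf1, Dnaaf2, Dnaaf3, Dnaaf5, Zmynd10 and Spag1, 6 of the 21887 protein-coding genes of the RefSeq table. They were chosen by name, with earlier results of these data known. A peak was assigned to a gene where its midpoint lay in the gene body or within 10 kb of either annotated end. The study profiled the genomic binding of Foxn3, Foxn4 and Rfx3 by CUT&RUN, in which a nuclease tethered by an antibody releases the DNA around the bound protein for sequencing. Retinas of CD-1 mouse embryos at embryonic day 16 were pooled and dissociated, with about 300000 cells in each assay, per the labels' protocols. Antibody libraries numbered 4 for Foxn3 (in 2 experiments), 2 for Foxn4 and 2 for Rfx3, beside 4 rabbit immunoglobulin G (IgG) controls for Foxn3, 2 rabbit IgG controls for Rfx3 and 2 mouse IgG controls for Foxn4. Nuclease digestion lasted 1 h, but about 12 h for the Foxn4 and mouse IgG libraries, so antibody, digestion time and control species cannot be told apart in any difference between Foxn4 and the other lists.

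The data used were 3 peak lists, 1 for each antibody, with 2794 Foxn3, 2956 Foxn4 and 3981 Rfx3 peaks. No list separates replicates, no IgG values were analysed here and read depth is unknown, so the values below have no replicate error and were not tested. CUT&RUN peaks do not measure expression, and whether these genes were transcribed in the retina was not measured.

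Axonemal dyneins are the motors that make motile cilia and flagella beat. They are built in the cytoplasm before transport into the cilium, and assembly factors act there as chaperones, co-chaperones and scaffolds; their loss leaves cilia short of dynein arms and is a cause of primary ciliary dyskinesia. Most cells of the developing retina carry a primary cilium, a sensory structure that lacks dynein arms, and the photoreceptor outer segment is a modified primary cilium. RFX factors bind the X-box, an inverted repeat found in promoters of many genes of both primary and motile cilia, and Foxn3 and Foxn4 belong to the forkhead family.

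Every gene of the set had a Foxn3 peak and an Rfx3 peak in its body or within 10 kb, and all 6 Foxn3 peaks overlapped an Rfx3 peak. Such overlap was common in the series: 81.1% of all 2794 Foxn3 peaks overlapped an Rfx3 peak, so 6 of 6 is near the background. Across all protein-coding genes, 15.2% had a Foxn3 peak and 19% an Rfx3 peak in the same window. A Foxn4 peak lay in this window at 1 of the 6 genes, Dnaaf5, against 10.5% of all genes. With peaks counted only within 1 kb of an annotated end, Dnaaf1, Dnaaf3, Dnaaf5 and Zmynd10 had both Foxn3 and Rfx3. That is 4 of 6 for each, against 8.82% of all genes for Foxn3, 10.6% for Rfx3 and 7.56% for both together. The Foxn4 peak of Dnaaf5 was also at its end, 1 of 6 against 4.84% of all genes. Of all 1654 genes with both Foxn3 and Rfx3 at an end, 40.4% also had Foxn4 there, and among the 4 assembly factor genes 1 did.

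Promoter sequences were held by the RefSeq table for 4 of the 6 genes (Dnaaf2, Dnaaf3, Dnaaf5 and Zmynd10). They are shown because the midpoints of the peaks at these start sites lie on them. Each of those peaks runs past an edge of its promoter window, so only some of the letters under it can be read. Bases of the peaks outside these windows were neither shown nor searched for motifs. Each runs 5′ to 3′ on the gene's own strand in build GRCm38.p6 (the mm10 assembly), from 250 bases before the start site to 50 bases from it on. The positions are chr12:69198380-69198679 on the minus strand for Dnaaf2, chr7:4532416-4532715 on the minus strand for Dnaaf3, chr5:139149985-139150284 on the plus strand for Dnaaf5 and chr9:107547054-107547353 on the plus strand for Zmynd10. Capitals mark X-box-like letters: the half-site GTTGCC on either strand, and GTTNCC followed after 0 to 3 bases by GGNAAC with at most 1 mismatch over the 10 fixed letters.
Dnaaf2: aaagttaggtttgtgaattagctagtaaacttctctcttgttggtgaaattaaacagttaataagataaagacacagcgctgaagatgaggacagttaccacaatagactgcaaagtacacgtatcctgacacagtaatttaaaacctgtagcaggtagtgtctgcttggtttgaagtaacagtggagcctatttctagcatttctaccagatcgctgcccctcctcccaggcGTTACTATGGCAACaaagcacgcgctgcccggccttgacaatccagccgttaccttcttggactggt
Dnaaf3: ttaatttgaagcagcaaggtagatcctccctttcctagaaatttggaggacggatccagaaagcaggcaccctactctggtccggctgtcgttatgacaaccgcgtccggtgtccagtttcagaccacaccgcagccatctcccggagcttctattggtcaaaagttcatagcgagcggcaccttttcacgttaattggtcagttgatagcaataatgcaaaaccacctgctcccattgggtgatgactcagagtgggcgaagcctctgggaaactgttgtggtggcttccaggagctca
Dnaaf5: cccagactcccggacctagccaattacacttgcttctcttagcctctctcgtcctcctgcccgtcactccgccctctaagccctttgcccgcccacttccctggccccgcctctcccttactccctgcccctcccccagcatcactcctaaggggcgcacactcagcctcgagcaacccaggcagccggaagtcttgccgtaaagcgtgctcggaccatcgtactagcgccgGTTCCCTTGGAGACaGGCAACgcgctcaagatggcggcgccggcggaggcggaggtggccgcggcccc
Zmynd10: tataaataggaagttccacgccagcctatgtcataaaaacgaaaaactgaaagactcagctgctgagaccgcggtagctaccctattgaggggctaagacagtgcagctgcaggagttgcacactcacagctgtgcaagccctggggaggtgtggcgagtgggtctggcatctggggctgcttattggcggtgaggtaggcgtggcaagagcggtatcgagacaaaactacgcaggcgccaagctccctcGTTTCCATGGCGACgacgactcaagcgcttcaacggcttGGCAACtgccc

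Among the co-chaperones, Dnaaf2 (kintoun, a PIH-domain protein that works with heat shock chaperones) spans 69189087 to 69200083 on chromosome 12. Its Foxn3 peak ran from 69198286 to 69198557 with a score of 47.7, and its Rfx3 peak from 69198203 to 69198633 with a score of 152. Scores are the authors' values, of unstated scaling, and are read here only as ranks within a list. The Foxn3 peak scored above 68% of the Foxn3 list and the Rfx3 peak above 72.9% of the Rfx3 list. The peaks were centred 3 bp apart. Their midpoints lay 1662 and 1665 bp inside the upper annotated end of the gene, so Dnaaf2 was not counted at 1 kb. The RefSeq start site in the promoter table lies 1654 bp inside that end, at 69198429, and the peak midpoints were 8 and 11 bp from it. The distance to the annotated end and the distance to the start site therefore placed the same pair of peaks differently. A long non-coding RNA gene, 9330151L19Rik, spans both midpoints, with its nearest end 1210 bp from the Foxn3 and 1207 bp from the Rfx3 midpoint.

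Spag1, a tetratricopeptide repeat protein of the assembly pathway, spans 36176229 to 36235621 on chromosome 15 and is the longest of the 6 genes at 59393 bp. Its Foxn3 peak (36179603 to 36179824, score 32.7) and Rfx3 peak (36179585 to 36179857, score 63) were centred 8 bp apart. Both lay in the gene body, 3484 and 3492 bp from the lower end, with no end of another protein-coding gene within 1 kb. These were the lowest-ranked of the 6 overlapping pairs, above 53.3% of the Foxn3 list and 42.1% of the Rfx3 list. The promoter table holds no entry for Spag1, and exons were not examined, so whether the peaks lie on a start site, an exon or an intron was not determined. Polr2k overlaps the lower end of Spag1 by 784 bp, and no peak midpoint lay on that overlap.

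Zmynd10, a MYND zinc finger protein that joins clients to chaperones, is the shortest gene, at 107546872 to 107551321 on chromosome 9. Its Foxn3 peak (107547141 to 107547436, score 64.5, above 77.2% of the list) and Rfx3 peak (107547131 to 107547457, score 251, above 83.9%) were centred 6 bp apart. Their midpoints were 416 and 422 bp from the lower end of the gene and 16 and 10 bp from the start site. No other protein-coding gene had an end within 1 kb, but the long non-coding RNA gene Gm34106 has an end 280 bp from the Foxn3 and 274 bp from the Rfx3 midpoint. A second Rfx3 peak, at 107554276 to 107554786 with a score of 50 (above 31.6% of the list), lay 3210 bp beyond the upper end. It falls inside Rassf1, 52 bp from a Rassf1 start site, and was the only assigned peak outside the bodies of the 6 genes and away from their ends. The next peaks on that side, a Foxn3 and an Rfx3 peak between Rassf1 and Tusc2, lay 11813 and 11893 bp away, just beyond the 10 kb limit.

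Dnaaf5, a HEAT-repeat scaffold protein, spans 139150133 to 139186510 on chromosome 5 and carried the highest-ranked peaks of the set. Its Rfx3 peak (139149698 to 139150395) had a score of 1113, above 98.7% of the Rfx3 list. Its Foxn3 peak (139149704 to 139150329) had a score of 251, above 96.6% of the Foxn3 list. The Foxn4 peak (139149730 to 139150289) had a score of 6.22, under the Foxn4 median of 7.11 and above only 36.7% of that list. It was nonetheless wider than 91.6% of Foxn4 peaks, at 560 bp, and lay wholly inside both other peaks, with its midpoint 7 bp from that of Foxn3 and 37 bp from that of Rfx3. Prkar1b, which encodes a regulatory subunit of protein kinase A and is transcribed from the opposite strand, overlaps Dnaaf5 by 571 bp here. A Prkar1b start site lay 8 bp from the Foxn4, 15 bp from the Foxn3 and 45 bp from the Rfx3 midpoint, against 226, 219 and 189 bp to the Dnaaf5 start site. These peaks cannot be assigned to either gene.

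Dnaaf1, a leucine-rich repeat protein, spans 119575235 to 119598454 on chromosome 8. Its Foxn3 peak (119575118 to 119575379, score 71, above 79.5% of the list) and Rfx3 peak (119575164 to 119575362, score 112, above 64.3%) were centred 15 bp apart, 13 and 28 bp from the lower end of the gene. The body of Hsdl1, a hydroxysteroid dehydrogenase-like gene transcribed away from Dnaaf1, ends with a gap of 20 bp before it, with a start site 73 bp from the Foxn3 midpoint, so these peaks are shared by both genes. At 199 bp the Rfx3 peak was among the narrowest of its list, wider than only 0.616% of Rfx3 peaks. The promoter table holds no entry for Dnaaf1, and no peak lay at its other end, which overlaps Taf1c by 481 bp.

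Dnaaf3, a factor of the cytoplasmic assembly steps, spans 4522933 to 4532488 on chromosome 7. Its Foxn3 peak (4532335 to 4532696, score 134) ranked above 90.9% of the list and its Rfx3 peak (4532385 to 4532884, score 292) above 86.6%. The midpoints were 50 and 169 bp from the start site, which lies 23 bp inside the upper end, and no other protein-coding gene had an end within 1 kb. At 119 bp, the distance between the Foxn3 and Rfx3 midpoints was the largest of the set. The nearest peaks outside the window, 14217 and 14219 bp away, lay at Syt5.

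**Figure D1:**
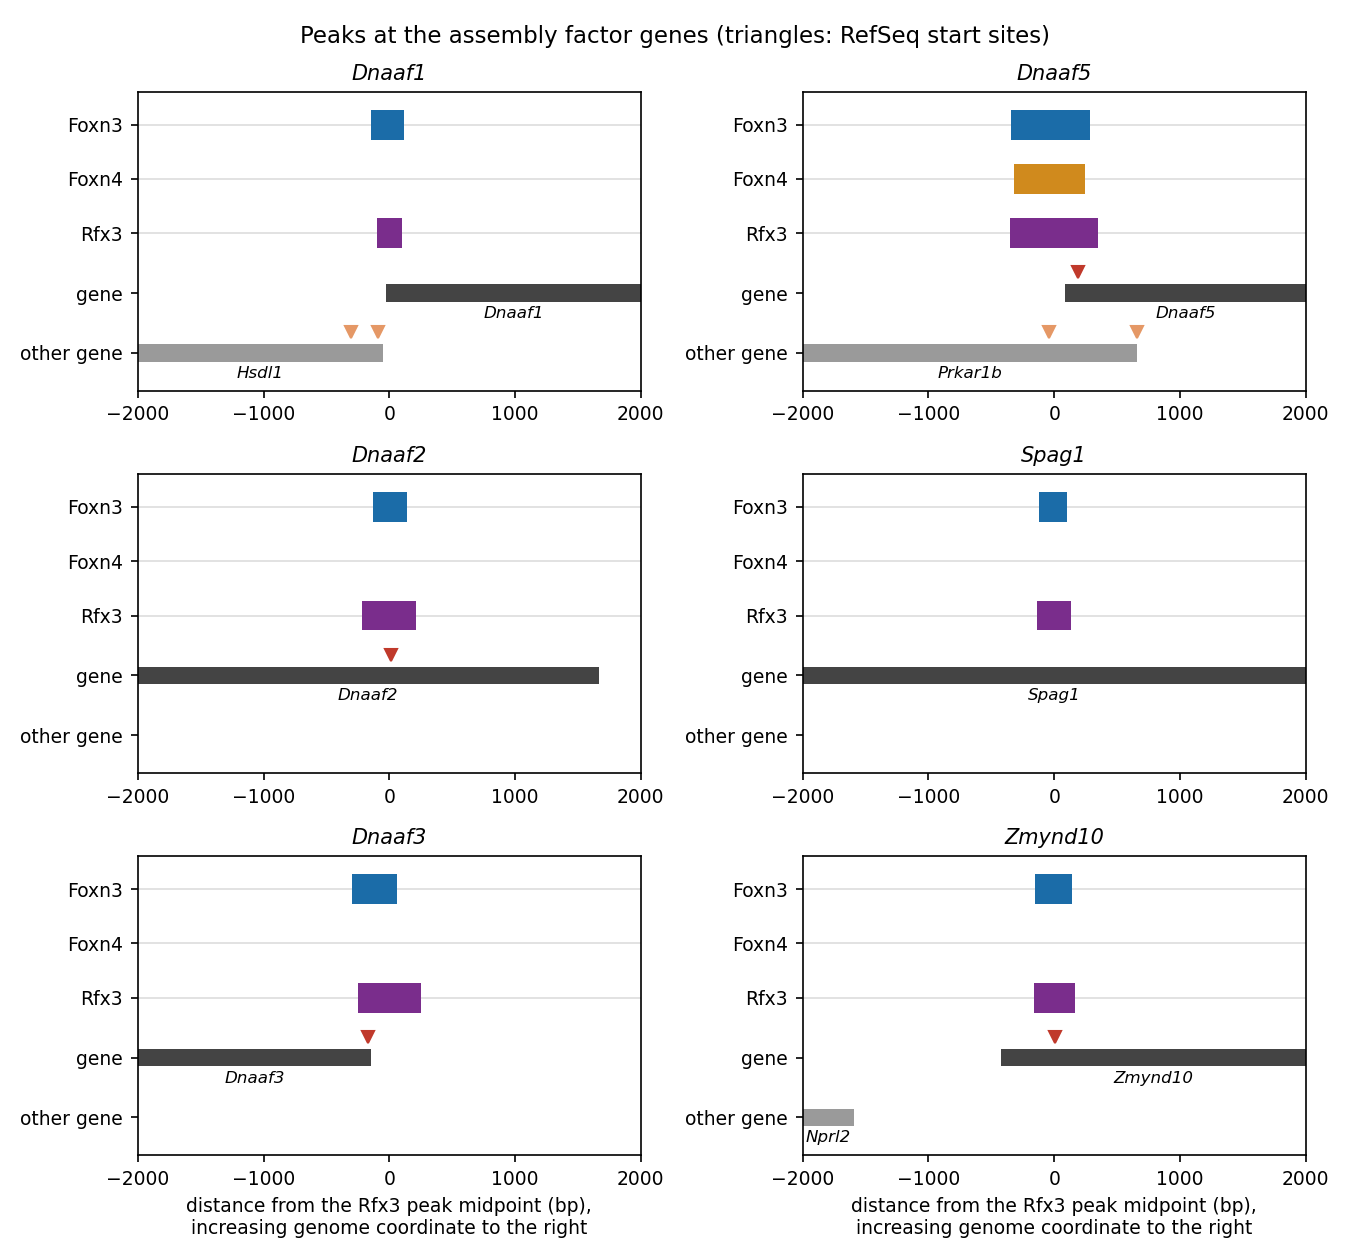
Peaks within 2000 bp of the Rfx3 peak midpoint (x axis, bp) at each gene, with Foxn3, Foxn4 and Rfx3 peaks as coloured bars, the gene in dark grey, other protein-coding genes in light grey and RefSeq start sites as triangles. A Foxn3 bar overlies each Rfx3 bar shown, Foxn4 appears at Dnaaf5, and the peaks of Dnaaf1 and Dnaaf5 also lie at an end of Hsdl1 and Prkar1b.

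Merging overlapping peaks gave 7 regions at the 6 genes: 5 with Foxn3 and Rfx3, 1 with all 3 factors (Dnaaf5) and 1 with Rfx3 alone (the Rassf1 region near Zmynd10). Over the whole series, 22.1% of 6155 merged regions held Foxn3 and Rfx3 without Foxn4, 14.2% held all 3 and 25.3% Rfx3 alone. At the assembly factor genes the Foxn3 and Rfx3 midpoints lay a median of 11.5 bp apart (range 3 to 119 bp, 6 pairs). The median over all 2272 overlapping pairs of these lists was 47 bp, but the pairs were not matched for width. Peak width bounds such a distance, and the member peaks had smaller median widths than their lists. These were 284 against 384 bp for Foxn3 and 431 against 469 bp for Rfx3. In 5 of the 6 pairs the shorter peak lay entirely within the longer one, and at Dnaaf3 86.2% of it did.

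**Figure D2:**
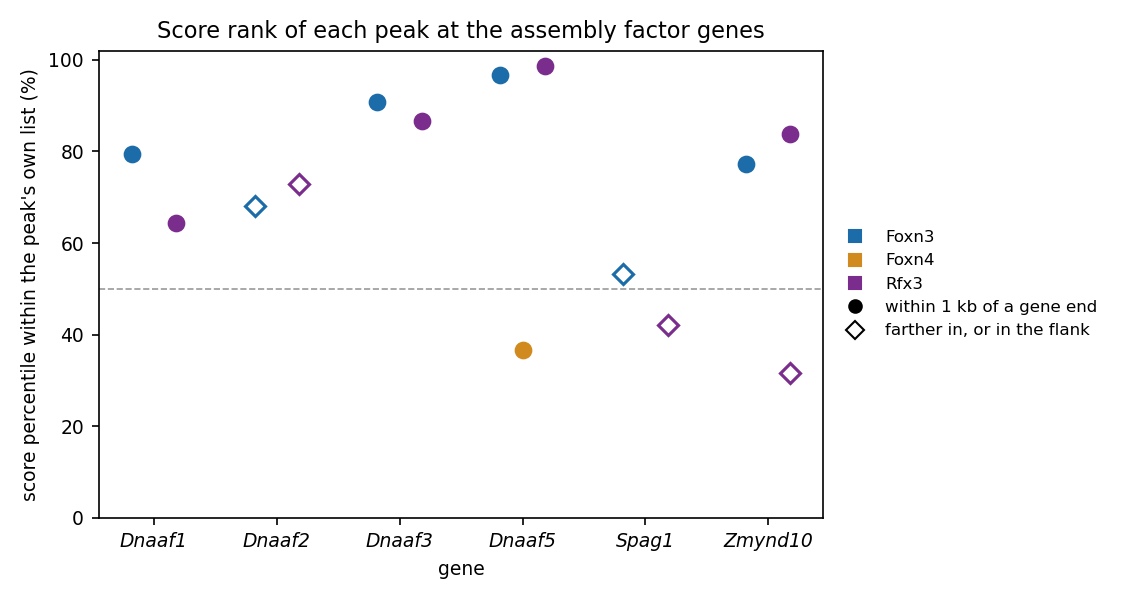
Score percentile of each peak within its own list (y axis, percent of the list's other peaks that scored lower, with tied peaks given their average rank) for each gene (x axis), with filled circles within 1 kb of a gene end and open diamonds elsewhere; the dashed line is the list median. Dnaaf5 is highest for Foxn3 (96.6%) and Rfx3 (98.7%), while its Foxn4 peak (36.7%), the Spag1 Rfx3 peak (42.1%) and the second Zmynd10 Rfx3 peak (31.6%) are under the line.

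Within their lists the 6 Foxn3 peaks ranked at a median percentile of 78.3 (53.3 to 96.6), and the 7 Rfx3 peaks at 72.9 (31.6 to 98.7), where the median of a whole list is at the 50th. Dnaaf5 and Dnaaf3 took the top ranks for both factors and Spag1 the lowest of the overlapping pairs. Between them, Dnaaf1 ranked above Zmynd10 and Dnaaf2 for Foxn3 and under both for Rfx3. With no replicate values, neighbours in these orders cannot be separated by their error. Member Foxn3 peaks were 222 to 626 bp wide with a median of 284 bp, against 384 bp for the list, and only that of Dnaaf5 exceeded the list median. Member Rfx3 peaks were 199 to 698 bp wide with a median of 431 bp, against 469 bp.

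The assignment to a gene depended on its neighbours at Dnaaf1 and Dnaaf5, where the peaks also lay within 1 kb of Hsdl1 and Prkar1b. With peaks near more than 1 protein-coding gene left out, an alternative chosen after seeing the data, Dnaaf3 and Zmynd10 kept Foxn3 and Rfx3 at an end (2 genes each, against 5.33% and 6.81% of all genes). None of the 6 kept Foxn4, against 2.98% of all genes, a share at which a count of 0 among 6 says little. Such shared peaks were 24.9% of the Foxn3, 24.1% of the Foxn4 and 22.2% of the Rfx3 peaks that lay near any gene end. Measured from RefSeq start sites in place of gene ends, all 4 genes with an entry (Dnaaf2, Dnaaf3, Dnaaf5 and Zmynd10) had Foxn3 and Rfx3 within 1 kb, and Dnaaf5 had Foxn4. Of all 17492 protein-coding genes with an entry, 9.67% had Foxn3, 11.6% Rfx3 and 5.29% Foxn4 at that distance.

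The promoters printed above were searched on both strands for X-box letters and for short motifs known for forkhead and NF-Y factors. The 32851 promoters of the table, the base of the shares below, include non-coding genes and more than 1 entry for some genes. They are thus not the protein-coding genes counted above. The intact pair, GTTNCC with GGNAAC after 0 to 3 bases, occurred in 0 of the 4 promoters and in 0.804% of all promoters. It occurred in 4.38% of those with a Foxn3 midpoint, 4.6% with an Rfx3 and 0.696% with a Foxn4 midpoint. At such shares 0 of 4 says little. With at most 1 mismatch, a search chosen after the exact one had found nothing, Dnaaf2 held GTTACTATGGCAAC, Dnaaf5 GTTCCCTTGGAGAC and Zmynd10 GTTTCCATGGCGAC. These 3 of 4 compare with 5.44% of all promoters, 23% of the 1762 with an Rfx3 midpoint inside, 22.2% of the 1577 with a Foxn3 midpoint and 8.93% of the 862 with a Foxn4 midpoint. The matches at Dnaaf2 and Zmynd10 were centred 21 and 17 bp from the Rfx3 midpoint and 18 and 23 bp from the Foxn3 midpoint. At Dnaaf5 the match was 178 bp from the Rfx3 and 208 bp from the Foxn3 midpoint, though inside both peaks. All 3 matches lay within 11 bp of the start site by their centres. In Dnaaf3 no such pair was found, which says only that these letters are not in this window.

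The half-site GTTGCC was present in the Dnaaf2, Dnaaf5 and Zmynd10 promoters, against 12.5% of all promoters, 27.8% of those with a Foxn3 midpoint and 28.7% of those with an Rfx3 midpoint. Each match is GGCAAC as printed, the half-site on the other strand. In Dnaaf2 it forms the downstream arm of the pair, and in the other 2 it lies apart from it. Half-sites with looser letters, GTNNCC and GGNNAC at the same spacing, were found in Dnaaf5 and Zmynd10, at the same place as the mismatched pair, and in 3.86% of all promoters, 15.6% of those with a Foxn3 midpoint and 16.1% of those with an Rfx3 midpoint. GACGC, a short motif bound by some FOXN-type forkhead proteins, occurred in 1 of 4, Dnaaf3, against 27.2% of all promoters and 55.8% to 57.2% of those with a midpoint of any of the 3 lists. GTAAACA, the classical forkhead motif, occurred in 0 of 4, against 3.65% of all promoters and 1.39% to 2.16% of those with a midpoint. CCAAT, the NF-Y motif, occurred 3 times in Dnaaf3 and once each in Dnaaf5 and Zmynd10, and so in 3 of 4. At least 1 was present in 37.4% of all promoters, 64.4% of those with a Foxn3, 58.7% with an Rfx3 and 70.3% with a Foxn4 midpoint, and 3 of 4 is near these last shares. GC content differed widely among the 4 promoters: 44.3% in Dnaaf2 (8 CpG), 51.3% in Dnaaf3 (12 CpG), 56% in Zmynd10 (17 CpG) and 66.3% in Dnaaf5 (24 CpG). The median was 52.7% (7 CpG) over all promoters and 61.7% (22 CpG) over those with an Rfx3 midpoint, so Dnaaf5 alone was above the latter.

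**Figure D3:**
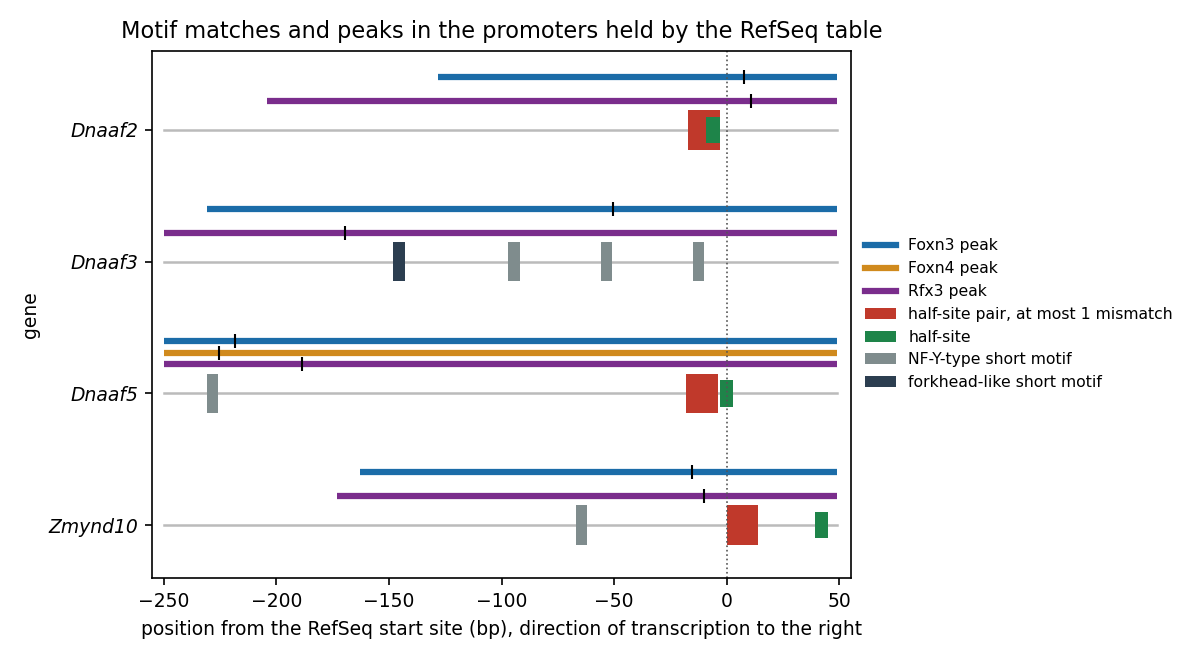
Position from the RefSeq start site (x axis, bp) of motif matches (boxes) and peaks (coloured lines, cut at the promoter window, with a black tick at each midpoint inside it) in the 4 promoters. Half-site pairs with at most 1 mismatch sit at the start sites of Dnaaf2, Dnaaf5 and Zmynd10, near the midpoints in Dnaaf2 and Zmynd10 and 178 bp or more from them in Dnaaf5.

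Of 11 other assembly factor genes matched from 13 listed symbols, 6 had Foxn3, 7 had Rfx3 and 0 had Foxn4 within 1 kb of an end. The shares of all genes were 8.82%, 10.6% and 4.84%, and 0 of 11 is near the last of these. Lrrc6 (Foxn3 above 75.9% of its list, Rfx3 above 64.9%), whose product partners Zmynd10, had both factors, as did Daw1 (72% and 74.4%), a factor for dynein transport into the cilium. The highest ranks were at Cfap298 (99.7% and 98.5%) and Lrrc56 (96.6% and 99.6%), the latter sharing its peaks with Hras. Ccdc103 (62% and 76.4%) shared its peaks with Eftud2, and Pih1d2 (54.4% and 72.6%), a PIH-domain relative of Dnaaf2, with Nkapd1. Ttc12 had Rfx3 alone, above 71.3% of the list. Dnaaf4, Dnaaf6, Wdr92 and Cfap300 had no peak of any list in the gene or within 10 kb. Most genes lack one there: 15.2% of all genes had Foxn3, 19% Rfx3 and 10.5% Foxn4. The 6 genes described above all had Foxn3 and Rfx3 in that window. At an end the 2 sets were closer, with Foxn3 at 54.5% of the 11 and 66.7% of the 6, and Rfx3 at 63.6% and 66.7%. Both sets were chosen with earlier results of these data known, so the difference in the window is a description and was not tested.

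Among 6 genes of the R2TP complex and its HSP90 partners, general chaperones that the assembly factors work with, Ruvbl1 (Foxn3 above 36.9%, Rfx3 above 38.2%) and Hsp90aa1 (81.9% and 56.3%) had both factors at an end. Pih1d1, Rpap3, Ruvbl2 and Hsp90ab1 had none there. The clients of assembly were also examined. Of 10 intermediate and light chain genes, 7 had both Foxn3 and Rfx3 (Casc1, Dnaic1, Dnal1, Dnali1, Dynlrb2, Wdr63 and Wdr78) and 3 had no peak at an end. Foxn4 was present at Casc1, above 71.6% of its list, and at Dnaic1, above 2.93%. Casc1 shared its peaks with Etfrf1, Dnaic1 with Fam219a and Wdr78 with Mier1. Rfx3 ranks there ran from 34.2% of the list at Dnali1 to 95.4% at Casc1, and Foxn3 ranks from 42.7% at Dnal1 to 94.8% at Dynlrb2.

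Of 5 genes of the docking complex, which anchors outer arms to the axoneme, Ccdc151 (also called Odad3) had all 3 factors, above 97.4% of the Foxn3, 87.6% of the Foxn4 and 96.3% of the Rfx3 list, at an end shared with Prkcsh. Ttc25 (78.3% and 61.7%) and Efcab1 (87.9% and 86.4%) had Foxn3 and Rfx3. Ccdc114 had Foxn4 and Rfx3 at low rank, above 22.3% and 26.9% of their lists, and Armc4 had none. Of the 15 axonemal dynein heavy chain genes, 5 had both Foxn3 and Rfx3 at an end, against 7.56% of all genes, and 3 had Rfx3 alone. None had Foxn4 at an end, and 0 of 15 is near the 4.84% of all genes. In the gene or within 10 kb, 5 of the 15 had Foxn4, against 10.5% of all genes, but gene length was not matched. The gene lists were not tested against each other.

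**Figure D4:**
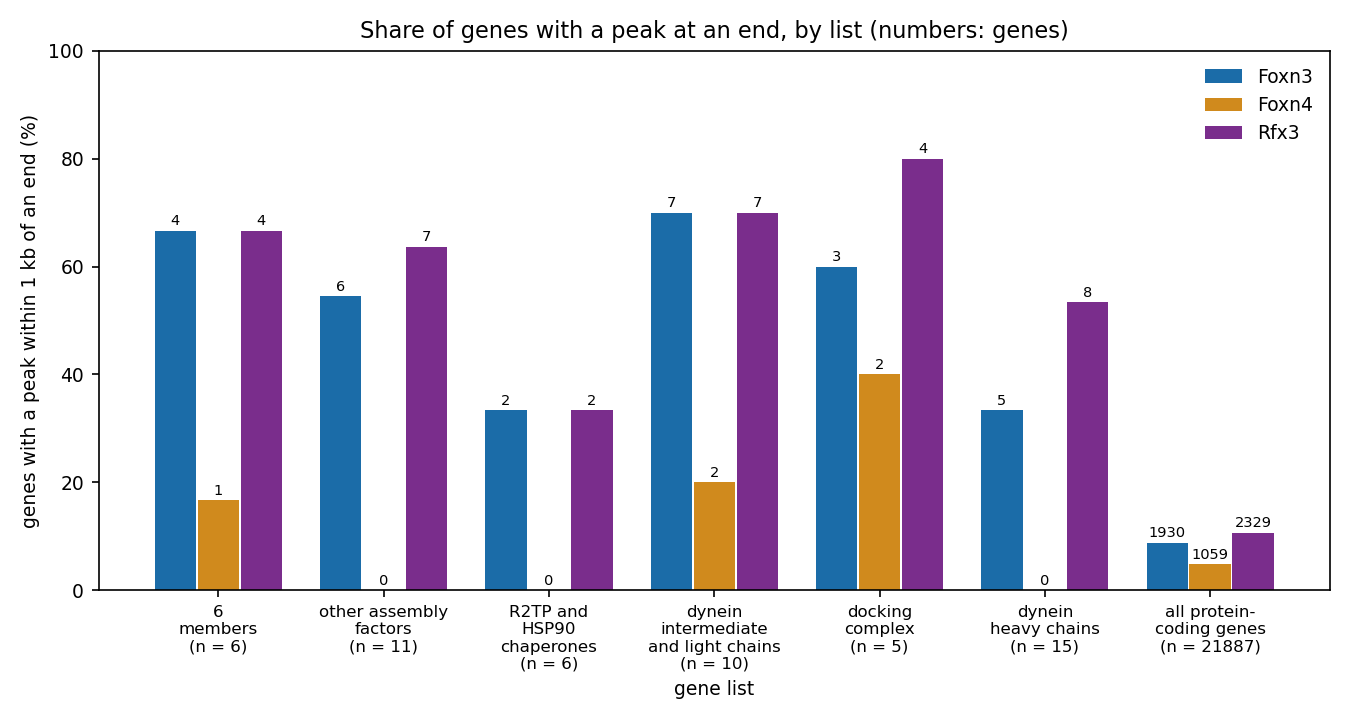
Share of genes with a peak midpoint within 1 kb of an annotated end (y axis, percent; bars from 0) in each gene list (x axis), by factor, with the number of genes above each bar. The 6 genes reach 66.7% for Foxn3 and Rfx3 and 16.7% for Foxn4, against 8.82%, 10.6% and 4.84% of all 21887 protein-coding genes.

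The protein-coding genes with the most similar pattern were found from the highest score percentile at an end in each of the 3 lists, with 0 where a list had no peak. The median over the 6 genes was 78.3 for Foxn3, 0 for Foxn4 and 74.1 for Rfx3. By Euclidean distance over these 3 values the 5 nearest genes were Tulp3, A930007A09Rik, 1700029J07Rik, Ufsp2 and 1700016K19Rik, at 0.469 to 2.34 percentile points. 1700029J07Rik and Ufsp2 have the same values because both of their peaks are shared between them. The median profile is close to no single one of the 6 genes: Dnaaf1 and Zmynd10 lay 9.87 points from it, Dnaaf3 17.7 and Dnaaf5 47.8, and Dnaaf2 and Spag1, which have no peak at an end, 108. Tulp3, a protein known for carrying membrane receptors into the primary cilium, had Foxn3 above 77.9% and Rfx3 above 74.2% of their lists, and no Foxn4 peak.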

How the data were processed

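CUT&RUN peaks were deposited by the authors as 3 lists in mm10 coordinates, per the file headers, each giving a position and a score per peak whose scaling is not stated. The submitters' processing notes name cutadapt, Bowtie2, UMI-tools, bedtools and SEACR, without versions, roles or settings; how libraries were combined and IgG used is not given in the sources used here. Positions were converted to count from 1. Peaks were placed by midpoint against gene bodies and start sites of RefSeq tables for GRCm38.p6 (chromosomes 1 to 19, X and Y). The gene table has no strand or exons. Percentiles are ranks within a list; scores were not compared between lists. Overlap meant at least 1 bp. The 6 genes, the 5 comparison lists and the rules for naming genes were chosen with earlier results of these data known, so no test was run. By rule, the genes named were all 6, protein-coding genes with an end within 1 kb of their peaks, comparison-list genes with a peak at an end (heavy chains by count only) and the 5 genes of most similar pattern. Comparison-list genes without a peak, non-coding and overlapping neighbours, and genes at peaks beyond the window were named outside it, after their values were seen. Python 3.11.15 with pandas 2.3.3 was used. Peak placement at gene ends and in gene windows, and the search for the intact pair, were tested on simulated data with planted answers. Placement at start sites and the searches with a mismatch, with looser letters and for single motifs were not tested in this way.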

Additional observations from a re-analysis of the deposited data

How the results depend on the processing

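Of 37 alternative gene counts, 32 stayed within 1.5 times the reported count and 5 moved. Some of the 32 could not have moved. For Foxn3 and Rfx3, looser end rules could only raise 4 to at most 6, which is still within that limit. Looser windows could not change a count of 6 of 6. The tally is therefore not a measure of how stable these counts are. At gene ends, 4 genes kept Foxn3 and Rfx3 within 500 bp (8.06% and 9.43% of all genes) and for peaks at or above the median score (4.88% and 5.19%). Counts were 5 within 2 kb (9.76% and 11.8%) and 6 within 5 kb (11.6% and 14.1%). In the wider window, the Rfx3 count was 5 at the median score, without Spag1 (10.3%). With peaks near more than 1 gene left out, the end counts fell from 4 to 2 for Foxn3 and Rfx3 and from 1 to 0 for Foxn4. The Foxn4 count was also 0 at the median score, both at an end (2.85% of all genes) and in the window (6.33%), where 0 of 6 is near the background. The median percentile was 85.2 for both the Foxn3 and Rfx3 peaks within 1 kb of an end. Ranking against end peaks alone gave 81.5 (Foxn3), 81.3 (Rfx3) and 33.7 (Foxn4). The half-site pair went from 0 promoters to 2 with looser letters and to 3 with 1 mismatch. All 4 overlap counts under other rules (overlap of 50% of the shorter peak, or midpoints within 500 bp) were as reported. The midpoint rule requires no overlap and is not stricter. Except at Dnaaf5, the overlapping peaks are too narrow for their midpoints to lie farther apart, so that rule could not change their count. Replicates could not be left out, since no list separates them. No paired analysis was possible because the lists carry no replicate columns. Unknown depth means that the absence of a peak does not show absence of binding.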
